A study of Mus musculus with 2 samples.

Results

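Of 84068 transcript models assembled by the authors from mouse bladder RNA on genome build mm9, 4198 (4.99%) were antisense to an annotated gene. Models were selected on strand, position and reproducibility: a model was taken as antisense when its span overlapped the span of an Ensembl gene on the opposite strand, overlapped no Ensembl gene on its own strand, and had an iIDR under 0.1. The iIDR is a reproducibility value that the authors give to each model from its 2 RPKM values, where RPKM is a read count scaled by transcript length and sequencing depth. Another 805 models met the strand rule but were listed at 0 in both values and had no iIDR. The iIDR reached at most 0.034 in the whole table, so the threshold removed only such models and no model lay just outside it. The members nearest the threshold shared the value 0.034 with 3095 members in all, and the lowest 3 of these lay opposite ENSMUSG00000049952 (0.00198 and 0 RPKM), Daam1 (0.00201 and 0 RPKM) and ENSMUSG00000087490 (0.0024 and 0 RPKM). Because the members were chosen by a value made from both RPKM values, their levels are given as a description.

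The tissue was urinary bladder of adult C57BL/6J mice, 8 weeks old, from littermates of both sexes, with no treatment named in the labels and the health state given as unknown. There was 1 group with 2 libraries. The labels call the libraries biological replicates but name 1 donor entry for both and do not say how many animals each holds, so a difference between the 2 values may be technical. The libraries were stranded, paired-end and with spike-ins, from rRNA-depleted RNA with polyA tails, longer than 200 nucleotides. Strand lets a read from an antisense transcript be told from a read of the sense gene. Gene tables on mm10 held 99367453 and 105057347 expected counts on genes in replicate 1 and replicate 2. The 6 smooth muscle markers averaged 1624 to 8674 TPM (transcript levels scaled by length to the same total in each library), the 5 of superficial urothelium 41.0 to 1977 TPM, and the 2 kidney and 2 accessory gland markers were listed at 0 in both libraries. In whole tissue, fewer cells of a type and less RNA per cell cannot be told apart.

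Antisense transcripts are copied from the strand opposite to a gene. Head-to-head partners overlap at their 5′ ends and can be transcribed from one shared promoter region, tail-to-tail partners overlap at their 3′ ends, and transcripts inside a gene often lie in its introns. Well-studied examples such as Kcnq1ot1, which silences neighbouring genes on the paternal chromosome, are long RNAs that act on genes in cis, while for most antisense transcripts no function is known.

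Promoters are shown for genes at which a head-to-head or internal antisense model is described below, to show the sequence before an annotated start of the sense gene or of its antisense partner. They were not placed on the mm9 models, since the builds differ. Each line holds 250 bases before a RefSeq start on GRCm38.p6, read 5′ to 3′ on the strand of the named gene, with CG dinucleotides in capitals. Rxra (chr2:27676951-27677200, plus strand), Zeb2 (chr2:45117443-45117692, minus strand), Grb10 (chr11:12037421-12037670, minus strand) and Gata2 (chr6:88193641-88193890, plus strand) are sense genes. Gm19610 (chr5:91074936-91075185, minus strand), which lies opposite Ereg, and Kcnq1ot1 (chr7:143296548-143296797, minus strand), which lies opposite Kcnq1, are antisense genes.
Rxra: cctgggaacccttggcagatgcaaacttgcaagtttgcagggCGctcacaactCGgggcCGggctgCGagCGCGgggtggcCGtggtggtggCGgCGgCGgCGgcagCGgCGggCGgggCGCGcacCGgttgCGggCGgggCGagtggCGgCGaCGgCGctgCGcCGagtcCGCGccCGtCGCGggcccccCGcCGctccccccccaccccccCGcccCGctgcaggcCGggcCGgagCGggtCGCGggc
Zeb2: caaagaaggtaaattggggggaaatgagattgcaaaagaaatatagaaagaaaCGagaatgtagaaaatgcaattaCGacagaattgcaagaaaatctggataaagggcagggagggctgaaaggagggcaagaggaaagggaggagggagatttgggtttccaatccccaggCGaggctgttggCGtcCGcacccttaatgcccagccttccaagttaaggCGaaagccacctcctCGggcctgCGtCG
Grb10: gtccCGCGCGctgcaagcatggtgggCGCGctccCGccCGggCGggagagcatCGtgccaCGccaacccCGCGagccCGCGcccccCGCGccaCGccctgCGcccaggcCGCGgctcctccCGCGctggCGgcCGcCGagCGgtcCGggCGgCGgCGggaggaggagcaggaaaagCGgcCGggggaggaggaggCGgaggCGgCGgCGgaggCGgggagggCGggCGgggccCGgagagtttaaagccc
Gata2: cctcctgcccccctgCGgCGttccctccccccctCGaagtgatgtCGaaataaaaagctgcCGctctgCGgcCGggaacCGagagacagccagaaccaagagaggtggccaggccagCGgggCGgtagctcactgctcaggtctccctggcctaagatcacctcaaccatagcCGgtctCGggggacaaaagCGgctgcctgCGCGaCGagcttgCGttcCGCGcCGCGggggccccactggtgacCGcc
Gm19610: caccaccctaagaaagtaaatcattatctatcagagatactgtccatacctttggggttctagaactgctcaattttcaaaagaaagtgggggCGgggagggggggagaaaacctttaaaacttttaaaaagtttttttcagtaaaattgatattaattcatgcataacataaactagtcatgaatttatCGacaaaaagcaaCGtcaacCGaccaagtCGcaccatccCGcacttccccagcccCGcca
Kcnq1ot1: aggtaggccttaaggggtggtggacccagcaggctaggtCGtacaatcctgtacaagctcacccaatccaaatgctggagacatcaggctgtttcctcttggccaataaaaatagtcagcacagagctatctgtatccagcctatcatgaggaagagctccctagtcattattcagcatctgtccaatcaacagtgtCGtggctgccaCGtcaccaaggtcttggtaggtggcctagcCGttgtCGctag

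The Rxra and Grb10 promoters each held 40 CG dinucleotides, Gata2 held 22 and Zeb2 held 9. The RefSeq starts used for Rxra and Grb10 lie 761 and 1263 bases inside the genes as GENCODE M21 lists them. The 2 antisense genes shown held fewer, with 7 for Gm19610 and 5 for Kcnq1ot1, and are too few to compare the 2 kinds of gene. The median over all 32851 RefSeq promoters was 6. Over protein-coding sense genes with a promoter in the table, the median was 11 for head-to-head models (n = 200), 5 for tail-to-tail models (n = 118), 13 for inside models (n = 1196) and 2 for genes contained in a model (n = 36), against 10 for the 15101 protein-coding genes with no antisense model. A count of at least 10 was reached by 52.5% of the head-to-head genes and by 52.0% of the genes with no antisense model.

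Most antisense models lay inside their sense gene. Inside models numbered 3468 (82.6%, 95% Wilson interval 81.4 to 83.7%), head-to-head models 341 (8.12%), tail-to-tail models 225 (5.36%), and models that contained the whole sense gene 164 (3.91%). The intervals cover counting error only, and models of one gene are not independent. The models had 2298 sense genes in all, of which 1564 had 1 model, 734 had 2 or more and 31 had 10 or more. Where a model overlapped several opposite-strand genes (147 of 4198), the one with the most shared bases was taken. Sense genes were long, with a median span of 36022 bases against 4495 bases for the other Ensembl genes. The sense genes were protein-coding for 86.2% of inside models, 77.4% of head-to-head models and 64.9% of tail-to-tail models. Of the 164 containing models, 42 contained a protein-coding gene, 40 a pseudogene and 43 a small RNA gene, and the contained genes had a median span of 437 bases.

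Antisense models were low. Their median was 0.0213 RPKM, 90% lay under 0.124 RPKM, and 77 of 4198 reached 1 RPKM. For comparison, the 24650 models with an iIDR that overlapped no gene had a median of 0.0201 RPKM, and the 50608 that overlapped a gene on their own strand had a median of 0.0576 RPKM. Antisense models spanned a median of 957 bases, against 907 bases for models of no gene and 766 bases for models of same-strand genes. The 2 RPKM values of the antisense models were related with a Spearman correlation of 0.53 (n = 4198 models, a description, since models share libraries and depth), and 399 models had a 0 in one value. The first value was at least 2-fold above the second, after adding 0.1 RPKM to each, in 59 antisense models (1.41%), against 1.62% of all 79456 models with an iIDR. The reverse held for 20 antisense models (0.476%), against 0.697% of all models. The iIDR is made from these 2 values, so nothing is read from either count.

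Against its sense gene, an antisense model was usually the lower of the pair, and this differed between position classes. The median log2 ratio over all models was -1.08, but 0.96 for the 273 models with an iIDR under 0.01, 0.019 for the 1216 with overlap of exons and 2.73 for the 77 of at least 1 RPKM. The iIDR and the 1 RPKM limit are set on the antisense values themselves, so nothing is read from 0.96 and 2.73. With the sense level from the assembled model, 582 of 3088 models were above the sense gene. On the log2 scale with 0.1 RPKM added to each level, the median antisense-over-sense ratio, an order of size since the tables of models and genes may have been normalized separately, was -1.57 for inside models, -0.83 for head-to-head models, 0.14 for tail-to-tail models and 0.34 for containing models. Single RPKM values gave -1.56 and -1.57 for inside models and -0.88 and -0.82 for head-to-head models. The gap between these classes was larger than the spread between values. The models were chosen on both values, so this spread does not measure the error of the gap. The antisense level exceeded the sense level in 960 inside models (27.7%), 121 head-to-head models (35.5%), 143 tail-to-tail models (63.6%) and 149 containing models (90.9%), in all 1373 of 4198. The order followed the sense genes: their median was 0.338 RPKM for inside, 0.162 RPKM for head-to-head, 0.00828 RPKM for tail-to-tail and 0 for containing models, while the models' own medians spanned only 0.0205 RPKM (inside) to 0.0385 RPKM (head to head). The sense gene was a small RNA gene for 43 of 164 containing, 6 of 225 tail-to-tail and 2 of 341 head-to-head models. The libraries held RNA longer than 200 nucleotides, so a 0 at a gene shorter than that does not show that it was silent. The part of this size limit in the counts above was not tested.

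**Figure D1:**
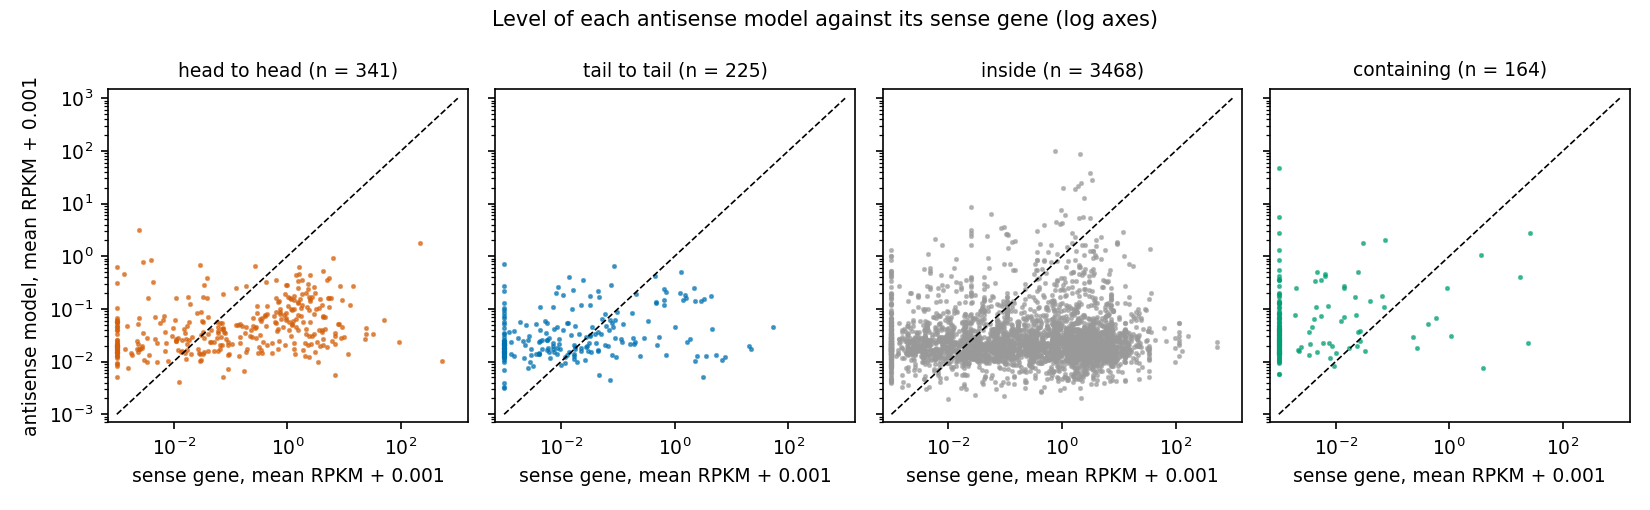
Mean RPKM of each antisense model (vertical) against its sense gene (horizontal), both with 0.001 added, on log axes, 1 panel per position class, and the dashed line marks equal levels. The median antisense level is 0.0213 RPKM and 90% lie under 0.124 RPKM, while sense levels run from 0 to over 100.8 RPKM, the highest antisense level.

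Where the sense gene was well transcribed, antisense RNA was a small part. For the 1465 models whose sense gene reached 1 RPKM, the antisense level was a median of 0.668% of the sense level, it was under 1% for 917 models and under 10% for 1366 models, and it exceeded the sense level in 16, all of them inside models. By class the median was 2.73% for head-to-head models (n = 111), 1.38% for tail-to-tail models (n = 24) and 0.627% for inside models (n = 1324). For the 2733 models whose sense gene was under 1 RPKM, the antisense level was the higher in 1357. Across models, the antisense level was related to the sense level with a Spearman correlation of 0.36 for head-to-head models (n = 341), 0.26 for tail-to-tail models (n = 225), 0.18 for containing models (n = 164) and 0.016 for inside models (n = 3468). These are descriptions over models that share libraries and, in part, sense genes.

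**Figure D2:**
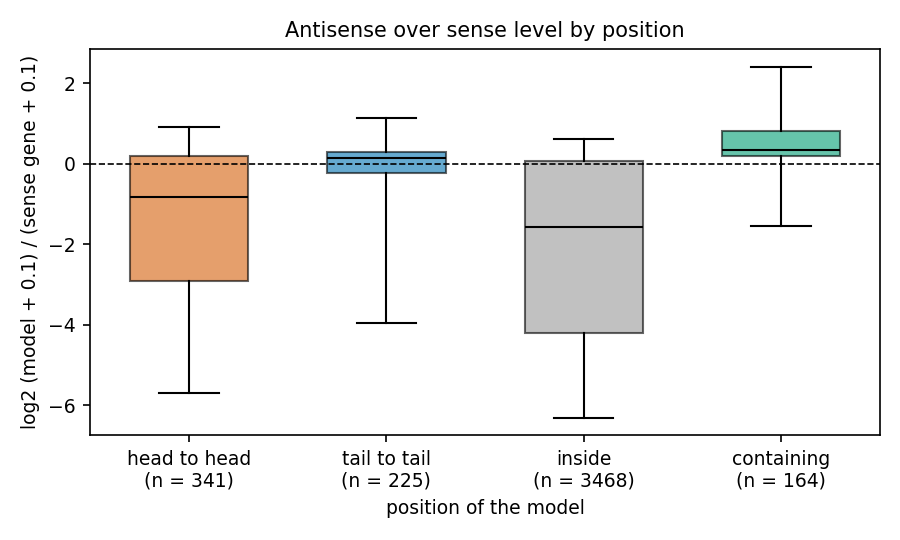
Log2 ratio of antisense model to sense gene, with 0.1 RPKM added to both, by position class. Boxes show the middle 50% of models with the median as a line, and whiskers the 5th and 95th percentiles. The median lies below 0 for head-to-head (-0.83) and inside models (-1.57) and above 0 for tail-to-tail (0.14) and containing models (0.34).

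Inside models lay along the whole sense gene and mainly between its exons. With each sense gene split into 10 equal bins from its start, bin 1 held 296 models by their midpoints, bin 10 held 441, and bins 2 to 8 held 301 to 363 each. In bin 10 29.3% of inside models touched a sense exon, against 15.5% in bin 1 and 7.69% in bin 2. Of all 3468 inside models, 2878 (83.0%) touched no exon of a gene on the opposite strand. Those off exons had a median of 0.0201 RPKM and the 590 on exons a median of 0.0231 RPKM. The sense genes of inside models had a median span of 76616 bases, and the share of it outside exons was not measured. Whether 83.0% differs from the share that random placement would give was therefore not tested. An exonic overlap was present in 95.6% of head-to-head models, 94.2% of tail-to-tail models and 53.7% of containing models.

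**Figure D3:**
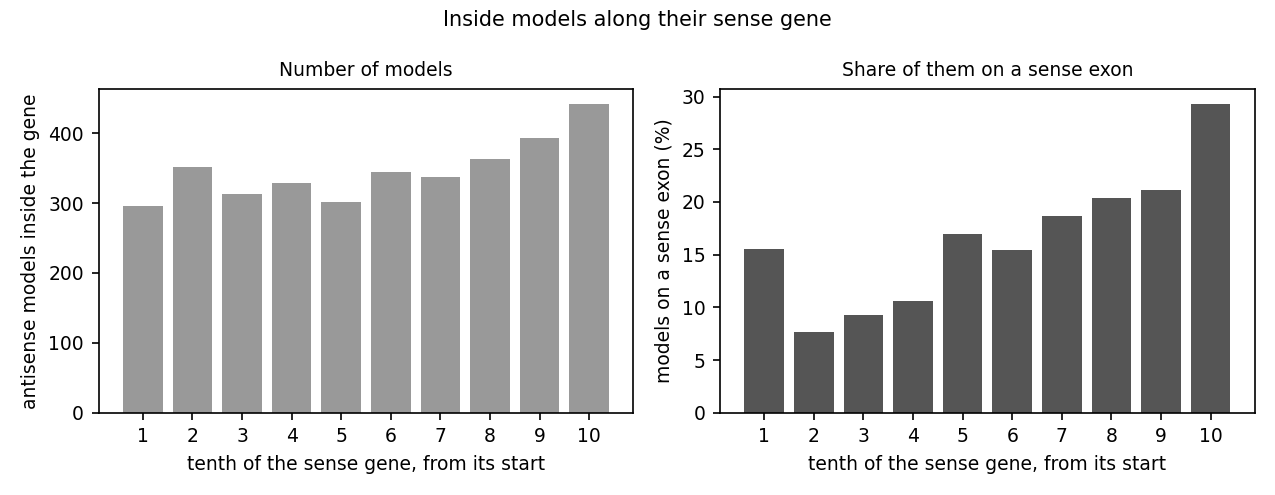
Number of inside antisense models (left) and the percentage of them that touch a sense exon (right) in 10 equal bins along the sense gene, counted from the gene's start. Both are highest in bin 10, with 441 models and 29.3%.

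Contigs, stretches of stranded read coverage that the authors deposited for both libraries together, were compared with the models. Coverage on the model's own strand was present over the exons of 3972 antisense models, and coverage on the opposite strand over 2248. Over 2152 models both strands had coverage, and the antisense strand was the higher in 1316 of them. In 114 models the antisense strand had under 5% of the coverage of the sense strand, and in 96 the model's own strand had none while the opposite strand had some. The part of reads assigned to the wrong strand was not tested.

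Few antisense models had introns. More than 1 exon entry was listed for 1008 of 4198 models, but 2507 of the 3506 gaps between entries were under 20 bases and 1412 were of a single base. A gap of at least 50 bases, a limit chosen after the gaps were seen, was present in 470 models (11.2%), against 8.04% of models of no gene and 29.3% of models of same-strand genes. Of the 981 gaps of that size, 848 (86.4%) were also in the authors' table of splice junctions, with a median of 4 reads over both libraries. Of the 981, 737 were marked as canonical, that is, with common bases at the intron ends. Introns are counted below with or without that mark. Models with an intron backed by junction reads made up 46.3% of containing models, 25.3% of tail-to-tail models, 20.5% of head-to-head models and 6.23% of inside models. An intron at the same coordinates as a sense intron was found 7 times. In 6 of these, at Pcf11, Tep1 and Cd163, all junction reads were on the sense strand, and the part of misassigned strands in these models was not tested.

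A transcribed same-strand gene lay shortly upstream of some models. The 5′ end lay within 5000 bases downstream of the end of an Ensembl gene on the model's own strand in 567 models (13.5%), and this was most frequent for tail-to-tail models (33.3%), against 17.7% of containing, 13.8% of head-to-head and 12.0% of inside models. The upstream gene reached 1 RPKM for 60.7% of these 567 models and for 44.6% of the other 3631. Whether such models are extensions of the upstream gene was not tested. Sense genes had a median span of 12764 bases for tail-to-tail, 437 for containing, 13902 for head-to-head and 76616 for inside models. The part of position and gene length in the order of the classes was not tested. No such share was taken for models of no gene.

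Head-to-head models started a median of 614 bases inside the sense gene, counted from its start. The start lay within 100 bases for 40 of 341 models, within 500 bases for 142 and within 1000 bases for 233. One of the 8 highest lay at Ereg, which encodes the EGF-family growth factor epiregulin. The model (chr5:91480310-91503863, minus strand) had 0.48 and 0.826 RPKM, against 0.181 and 0.366 RPKM for Ereg, so every antisense value was above every sense value. It started 220 bases inside Ereg, and its introns of 21044 and 1295 bases had 89 and 70 junction reads. GENCODE M21 lists the antisense gene Gm19610 on the strand opposite Ereg. Its promoter is printed above, the mm10 tables here do not quantify it, and neither intron of the model had the length of one of its introns.

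The other head-to-head models of highest level had partners that were mostly silent or much higher. The highest (chr6:18772267-18797312, minus strand) had 2.75 and 3.5 RPKM, against 0.00146 and 0.00149 RPKM for ENSMUSG00000085607. A model at Ankhd1, which encodes an ankyrin repeat protein, had 0.719 and 1.15 RPKM, against 5.8 and 6.81 RPKM for the gene. At the pseudogene Gm10222 a model had 2.49 and 1 RPKM, against 302 and 132 RPKM for the pseudogene, and reads of such copies cannot be placed with certainty. The models at Gm16216, Gm10874 and Gm17189 lay between 0.632 and 0.851 RPKM in every value, and their sense genes reached at most 0.0387 RPKM. The models at Gm16216 and Gm10874 had contig coverages of only 0.0169 and 0.185, the measure described with the contigs above. The head-to-head model at Antxrl had 0.381 and 0.859 RPKM, with Antxrl listed at 0 in both values.

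Head-to-head models at 4 genes of the lists, Rxra, Zeb2, Cdkn1c and Grb10, and at Gata2 were all lower than the gene. At Gata2, a zinc finger transcription factor of blood and urogenital development that was picked after its values were seen, the model had 0.401 and 0.662 RPKM, against 4.48 and 4.05 RPKM for the gene. It started 4671 bases inside Gata2, and its 5 introns had between 12 and 41 junction reads each. At Rxra, the retinoid X receptor alpha, the model had 0.0536 and 0.0461 RPKM, against 7.93 and 8.28 RPKM. At Zeb2, a repressor known from epithelial to mesenchymal transition, the model had 0.0227 and 0.0291 RPKM, against 5.35 and 3.03 RPKM, and it began 3074 bases downstream of Zeb2os, an annotated antisense gene with 4.25 and 4.15 TPM in replicate 1 and replicate 2. At Cdkn1c, an imprinted inhibitor of cyclin-dependent kinases, the unspliced model, which started 1376 bases inside the gene, had 0.0787 and 0.115 RPKM, against 1.1 and 1.24 RPKM. At Grb10, an imprinted adaptor of growth factor receptors, a model that started 1009 bases inside the gene had 0.0123 and 0.0239 RPKM, against 4.61 and 5.32 RPKM. Of its 9 introns 1 had no junction reads and the others had at most 8 each. In these 5 pairs every sense value was above every antisense value.

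Tail-to-tail pairs were led by Gapdhs, which encodes the glycolytic enzyme GAPDH of sperm. The model (chr7:31514362-31522818, plus strand) had 0.574 and 0.876 RPKM, with Gapdhs listed at 0 in both values. Its introns of 2559, 1942 and 1047 bases had 552, 491 and 306 junction reads. Kcnk4, a potassium channel, had an antisense model with 0.541 and 0.765 RPKM, against 0.0672 and 0.102 RPKM for the gene. Clca1, which encodes a secreted regulator of chloride channels, had a model of 111 exon entries with 0.267 and 0.43 RPKM, against 0.0207 and 0.0265 RPKM. At Gnpnat1, an enzyme of hexosamine synthesis, the order was turned, with 0.481 and 0.527 RPKM for the model against 1.08 and 1.48 RPKM for the gene. At ENSMUSG00000073719 the values overlapped, with 0.313 and 0.537 RPKM against 0.46 and 0.459 RPKM. The remaining 3 of the highest 8, at 5031410I06Rik, B230206L02Rik and Gm14262, lay above their sense genes in both values.

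**Figure D4:**
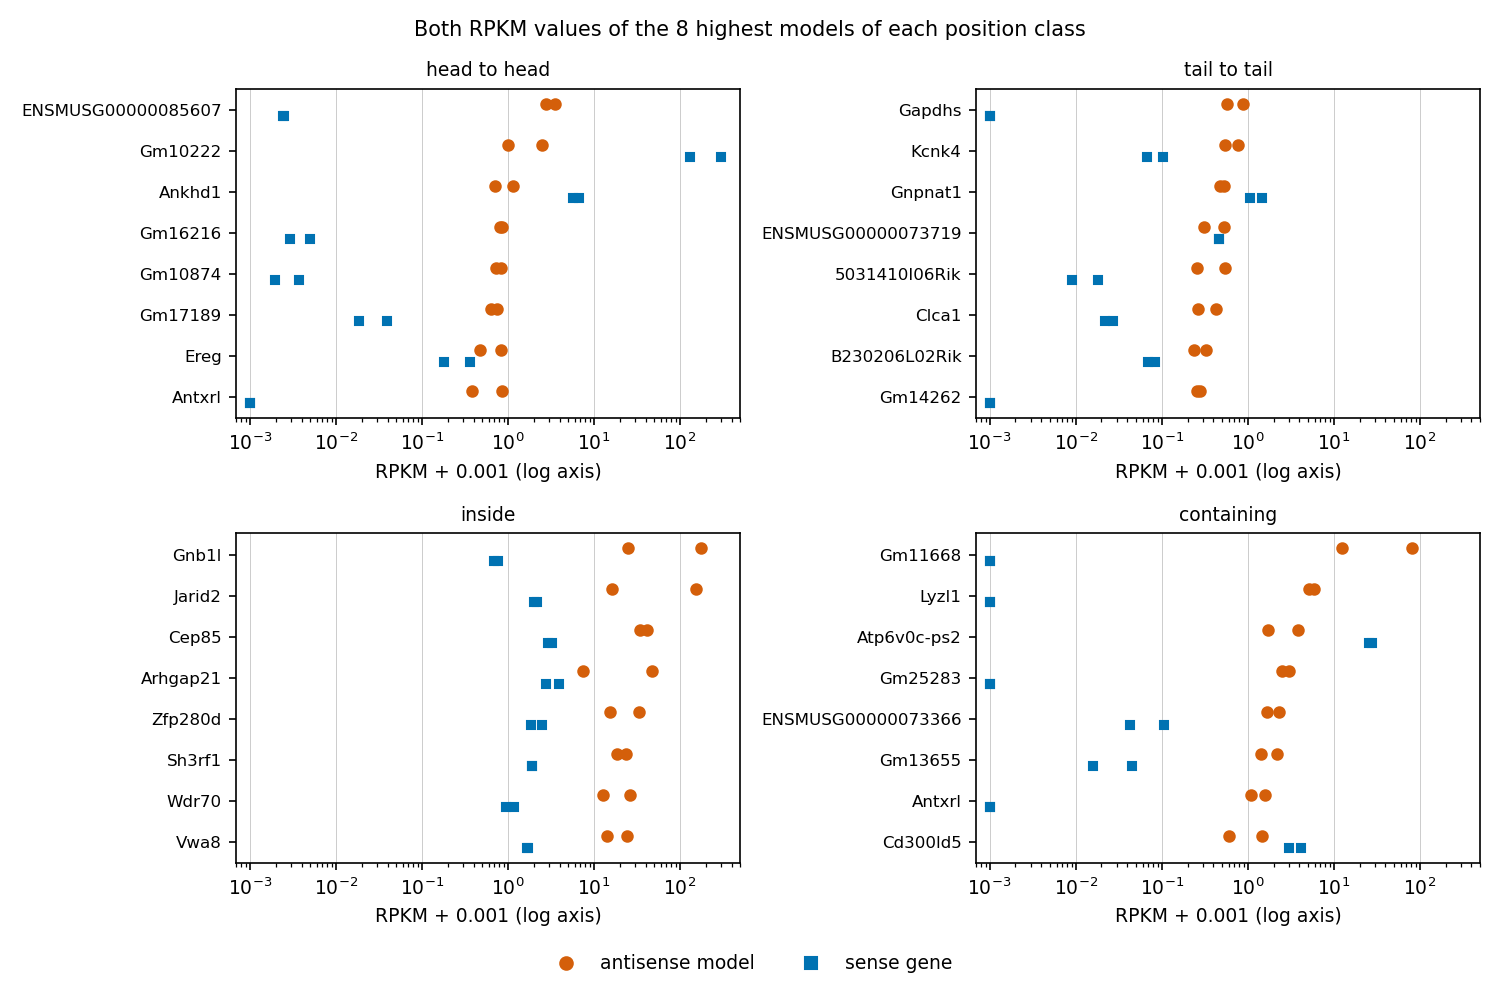
Both RPKM values, with 0.001 added and on a log axis, of the 8 highest antisense models of each position class (circles) and of their sense genes (squares), labelled by sense gene. The 8 inside models lie above their sense genes in every value, while Gm10222, Ankhd1, Gnpnat1, Atp6v0c-ps2 and Cd300ld5 lie above their models.

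The highest inside models were short and their 2 values often lay far apart. The highest of all (chr16:18533283-18533474, minus strand, 192 bases), inside Gnb1l, had 176 and 25.3 RPKM, against 0.699 and 0.78 RPKM for Gnb1l. At Jarid2, a cofactor of the Polycomb repressive complex PRC2, a model of 365 bases (chr13:44965160-44965524, minus strand) had 155 and 16.2 RPKM, against 2.18 and 2.02 RPKM. At Arhgap21, which encodes a GTPase-activating protein, a model of 371 bases had 47.5 and 7.51 RPKM, against 3.95 and 2.82 RPKM. Of the 10 antisense models of at least 10 RPKM, the first value was the higher in 9, 8 spanned under 1000 bases and 1 had an intron.

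The RPKM and the contig coverage of these models did not always go together. Over 3972 models with coverage the 2 measures had a Spearman correlation of 0.76, and coverage was a median of 3.48 per RPKM. The Jarid2 model had a coverage of 753 on its own strand and the Arhgap21 model 270, with none on the sense strand. The Gnb1l model had 2.00, and the model inside Zfp280d (33.2 and 15.3 RPKM) had 0.412. The models inside Sh3rf1 (18.8 and 23.7 RPKM) and Wdr70 (26.5 and 12.9 RPKM) had 3.57 and 5.92, also low for their RPKM. In 22 of the 77 models of at least 1 RPKM, coverage per RPKM was under 0.348, which is 10% of the median. The cause was not tested.

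The longest of the high inside models lay in Cep85, which encodes a centrosomal protein. It spanned 4259 bases (chr4:133715310-133719568, plus strand), touched no sense exon, and had 41.2 and 34.8 RPKM, against 2.96 and 3.3 RPKM for Cep85. Its contig coverage was 28.4 on its own strand and 0.00241 on the sense strand. Models inside Sh3rf1, a ubiquitin ligase that scaffolds JNK signalling (18.8 and 23.7 RPKM, against 1.89 and 1.89 RPKM), Wdr70 (26.5 and 12.9 RPKM, against 0.949 and 1.17 RPKM), Vwa8 (24.1 and 14.1 RPKM, against 1.71 and 1.7 RPKM) and Mgat5, a Golgi enzyme that branches N-glycans (6.78 and 5.63 RPKM, against 1.11 and 1.14 RPKM), were also above their sense genes in both values. M21 lists a processed pseudogene on the opposite strand at Mgat5 (Gm8451), Sh3rf1 (Gm7432), Wdr70 (Rpl19-ps6), Vwa8 (Gm6997 and Gm30970) and Zfp280d (Gm17828), and reads of such copies cannot be placed with certainty. The mm10 tables quantify 2 of these, and both were below the sense gene: Gm8451 had 0.76 and 0.79 TPM in replicate 1 and replicate 2, against 10.8 and 9.55 TPM for Mgat5. Gm17828 had 0.04 and 0 TPM, against 25.3 and 30.8 TPM for Zfp280d. Whether the models lie on these pseudogenes was not tested. The contig coverage of the Sh3rf1 and Wdr70 models was low for their RPKM, as given above, so their levels are uncertain. Among the 37 pairs in which model and sense gene both reached 1 RPKM, the model was the higher in 16.

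Among containing models, a model around the processed pseudogene Gm11668 was the highest, with 81.1 and 12.6 RPKM and the pseudogene listed at 0. It held 86 exon entries, and its 2 introns were backed by at most 5 junction reads. Models around Lyzl1, a lysozyme-like gene (5.18 and 5.97 RPKM), and around the small RNA gene Gm25283 (2.54 and 3.04 RPKM) likewise had sense genes listed at 0. Gm25283 spans 77 bases, below the size of the RNA in these libraries, so its 0 does not show that it was silent. The models around ENSMUSG00000073366 (1.68 and 2.34 RPKM) and the pseudogene Gm13655 (1.42 and 2.19 RPKM) had sense genes of at most 0.106 RPKM, and the model around ENSMUSG00000073366 had no contig coverage on its own strand. Around the pseudogene Atp6v0c-ps2 a model had 3.89 and 1.74 RPKM, against 25.6 and 28.1 RPKM, and reads of that pseudogene and its parent gene may not be separable. Around Cd300ld5, a receptor-type gene of the CD300 family, a model had 1.46 and 0.614 RPKM, against 3 and 4.17 RPKM. Each intron of the models around Lyzl1, Gm25283, Gm13655 and Atp6v0c-ps2 had only 1 junction read, and none of them was marked as canonical. The intron of the Cd300ld5 model had 0 junction reads. No exon entry of these models touched a sense exon, and whether each runs across the gene as 1 transcript was not tested. By number of exon entries, a model inside Abhd18 with 104 (0.188 and 0.265 RPKM, against 0.849 and 1.01 RPKM) and one around ENSMUSG00000090522 with 64 (0.365 and 0.659 RPKM, against 0.00397 and 0.00348 RPKM) were among the 5 highest.

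The Kcnq1 locus, an imprinted domain on chromosome 7, held 12 antisense models in a row. Kcnq1 encodes a potassium channel and is transcribed from the plus strand, and all 12 models lay on the minus strand between 150363841 and 150479075 (mm9). Together they covered 81415 of these 115235 bases, and 11 of them touched no sense exon. The largest, at the 5′ end of the row, spanned 40489 bases (chr7:150438587-150479075) and had 0.12 and 0.0991 RPKM, against 0.148 and 0.116 RPKM for Kcnq1, so their values overlapped. The other 11 had means of 0.0108 to 0.0489 RPKM. Coverage on the largest model's own strand was 0.395, against 0.00779 on the Kcnq1 strand, and none of the 12 had an intron of 50 bases.

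In the mm10 tables, whose annotation names Kcnq1ot1 (chr7:143203458-143296549, GRCm38), the gene had 3085 and 2191 expected counts in replicate 1 and replicate 2, against 189 and 183 for Kcnq1, a ratio of 16.3 in replicate 1 and 12.0 in replicate 2. Per length the order was turned: Kcnq1ot1 had 0.48 and 0.31 TPM, against 1.05 and 0.76 TPM for Kcnq1. Measured from the start of Kcnq1 in each build, Kcnq1ot1 runs from 97096 to 190187 bases, and 9 of the 12 models, with 78433 bases, lay within that stretch. The largest began 185916 bases from the Kcnq1 start.

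Some of the listed genes had an antisense model. Of 149 genes found in the table from 6 lists of bladder, developmental, imprinted and antisense-related genes, 11 had an antisense model: 1 of 15 smooth muscle genes, 0 of 14 urothelium genes, 2 of 12 urothelial transcription factors, 1 of 59 homeobox and patterning factors, 4 of 21 imprinted and classical antisense loci, and 3 of 28 known antisense partners. By comparison, 6.16% of all Ensembl genes were sense genes, so 11 of 149 was near the share of all genes and nothing is read from it. The smooth muscle gene was Myocd, the master coactivator of contractile genes, whose model had 0.234 and 0.104 RPKM, against 3.86 and 2.83 RPKM. Coverage there was 0.691 on the antisense strand and 0.718 on the sense strand. At Wrap53, known for its overlap with the start of Trp53, an inside model of 338 bases had 4.32 and 4.73 RPKM, against 0.66 and 0.89 RPKM, but a coverage of only 0.0958.

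At Meg3, an imprinted long noncoding RNA, a model of 805 bases had 0.0162 and 0.0138 RPKM, against 82.3 and 173 RPKM. It lay wholly on sense exons, and its coverage was 0.0416 on the antisense strand, against 6.58 on the sense strand. The 3 models at Sirt1, a protein deacetylase, had means of 0.0148 to 0.0278 RPKM, against 1.72 RPKM for the gene. The model at Rb1, the retinoblastoma tumour suppressor, had 0.057 and 0.073 RPKM, against 1.37 and 1.55 RPKM. Models at Grhl2, a transcription factor of epithelial barriers (0 and 0.0228 RPKM), and within Zeb2 (0.0198 and 0 RPKM) had a 0 in one value.

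A few genes, most of them with very long spans, had many models. The protein-coding gene Gm20388 on chromosome 8, with a span of 4434882 bases, held 52 models, and Cntnap2, a neurexin-family gene of 2241309 bases, held 43. Fgfr2, a fibroblast growth factor receptor whose span in this table was 3009069 bases, and Cemip, which encodes a hyaluronan-degrading protein and spans 153646 bases, held 24 each. The 23 sense genes of at least 1000000 bases held 197 models in all. The Cemip models had means of 0.0275 to 2.65 RPKM, against 0.107 RPKM for Cemip, and the highest of them (chr7:91162983-91173198, plus strand) had introns with up to 496 junction reads.

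A few models had introns with many junction reads. These were picked after their values were seen. At Cpsf2, a subunit of the machinery that cleaves and polyadenylates mRNA, a head-to-head model (chr12:103206314-103214569, minus strand) had 0.124 and 0.229 RPKM, against 1.25 and 1.32 RPKM for the gene. Its introns of 1282 and 6022 bases had 5075 and 5573 junction reads, the largest number at any antisense intron. Its contig coverage of 3.22 was high for its RPKM, against the median of 3.48 per RPKM. The Atrn model below had fewer junction reads and a higher RPKM. The level of the Cpsf2 model against its gene is therefore uncertain, and the cause was not tested. Inside Atrn, which encodes attractin, a model had 3.16 and 2.66 RPKM, against 11.5 and 12.4 RPKM, and introns with 1411 and 2506 junction reads. At Scaf8, which encodes an RNA polymerase II-binding splicing factor, a head-to-head model had 0.135 and 0.2 RPKM, against 2.53 and 2.81 RPKM, and introns with up to 521 junction reads. Inside Fanci, a DNA crosslink repair gene, a model had 0.604 and 0.802 RPKM, against 0.0755 and 0.166 RPKM, and up to 356 junction reads. Around ENSMUSG00000084406, listed at 0, a model had 0.806 and 0.29 RPKM. An intron of 261632 bases in it had 4120 junction reads but was not marked as canonical.

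The later annotation GENCODE M21 places a gene opposite many of the sense genes. Of the 2154 sense genes whose identifier it holds, 1140 (52.9%, 95% Wilson interval 50.8 to 55.0%) have a gene on the opposite strand, against 34.3% of the other 30466 Ensembl genes. For opposite-strand genes that the mm9 table does not hold, the shares were 24.6% (22.8 to 26.5%) of the sense genes and 9.60% (9.28 to 9.94%) of the others. Sense genes were longer, with a median span of 38077 bases against 6048 bases, and the part of length in this difference was not tested. Among genes of at least 1 RPKM the shares were 27.8% of 801 sense genes and 14.3% of 9889 others. The sense genes had a median of 1.69 and 1.59 TPM in replicate 1 and replicate 2, and 54.4% and 54.3% of them reached 1 TPM, against 32.3% and 32.4% of the other genes.

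Intron lengths were used to match single models to these later genes without moving coordinates between builds. An intron length equal to the base to that of an M21 gene opposite the same sense gene and outside the mm9 table was found in 40 models and 40 such genes, 23 of them of the type antisense. A length can match by accident, most easily at long genes with many introns. All introns of the models matched in 17 of the 40 pairs. At Bsn, Lgi1, Kcnj6 and Gm20388 some matched introns had no junction reads. In all, 52 M21 genes shared a length with a model. Those beyond the 40 are in the mm9 table, in which no antisense model overlaps a gene on its own strand. The share of accidental matches was not tested. At Gapdhs all 3 introns of the model had the lengths of introns of Tmem147os, which had 10.8 and 14.6 TPM in replicate 1 and replicate 2, against 0 and 0.03 TPM for Gapdhs. Both introns of the Cpsf2 model matched those of Ndufb1-ps. The intron of 886 bases in the model around Antxrl, with 131 junction reads, matched A630023A22Rik, which had 3.47 and 4.08 TPM, against 0 TPM for Antxrl in both libraries. At Kcnj15, a potassium channel gene, 4 of 5 introns matched Gm31641, and at Bcl2l14, a gene of the BCL2 family, 3 of 10 matched 4933406J09Rik.

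Over all 371 quantified pairs of a sense gene and an opposite-strand M21 gene outside the mm9 table, the antisense gene was above the sense gene in both libraries in 30 and below it in both in 317. The mm10 tables quantify 13 of the genes matched by intron length together with their sense gene. Of these, 7 were above the sense gene in both libraries and 6 were below it in both. Except for Bsn, the sense genes of these 7 were listed at 0 to 0.03 TPM. Of the genes above them, 6030407O03Rik (0.03 and 0.05 TPM) and Gm10857 (0.1 and 0.08 TPM) were themselves low. These 13 were picked through models assembled from the same libraries, so nothing is read from their difference to the 371 pairs. Gm19557 had 6.7 and 10 TPM, against 13.6 and 16.0 TPM for Stn1, a telomere maintenance gene. Gm29539 had 0.14 and 0.26 TPM, against 1.59 and 1.97 TPM for Wnt6, a secreted Wnt ligand. The gene 4930447F24Rik had 0.54 and 0.56 TPM, against 0.29 and 0.33 TPM for Bsn, a scaffold gene of synapses. Of the 13 genes, 3 reached 1 TPM in both libraries, against 35 of all 369 quantified opposite-strand genes outside the mm9 table. The 13 were picked as stated above, so nothing is read from this difference either.

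**Figure D5:**
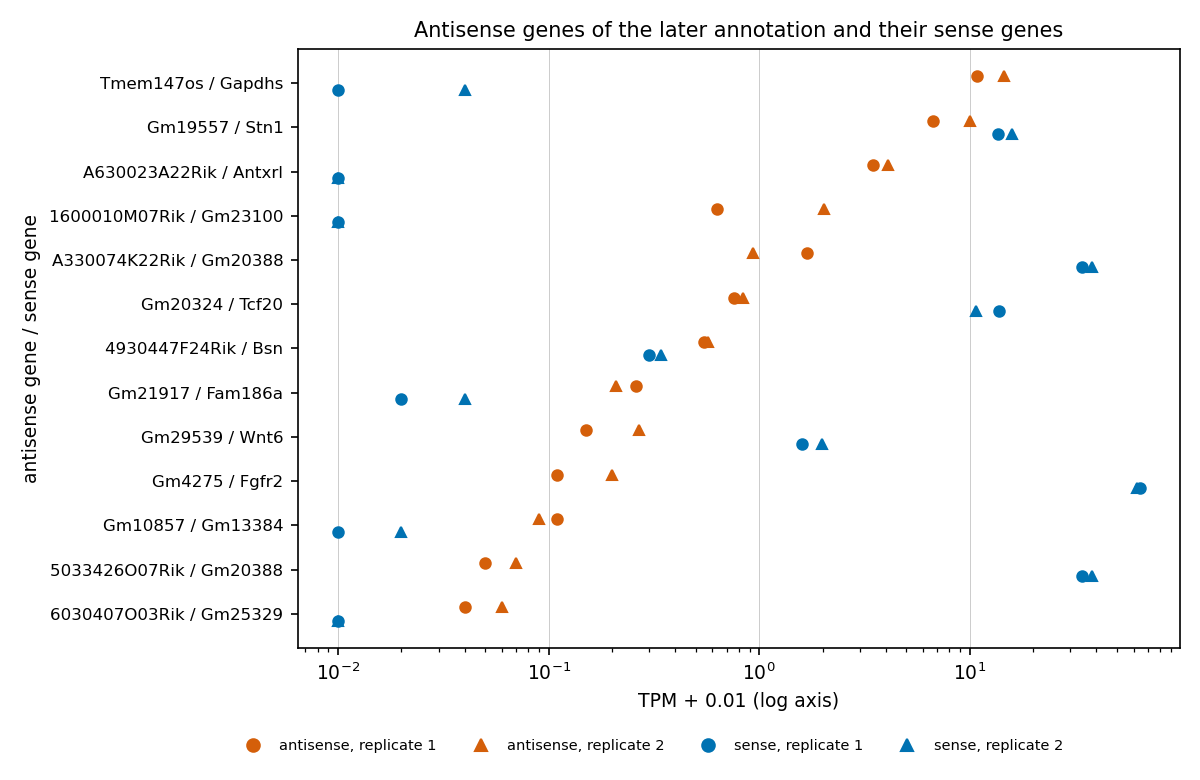
TPM with 0.01 added, on a log axis, of 13 opposite-strand genes of GENCODE M21 that share an intron length with an assembled model (orange) and of their sense genes (blue), in replicate 1 (circles) and replicate 2 (triangles). Tmem147os lies above Gapdhs, listed at 0 and 0.03 TPM, and the opposite-strand gene lies above the sense gene in 7 of these 13 pairs. Except for Bsn, the sense genes of these 7 are listed at 0 to 0.03 TPM. The 13 were picked through models assembled from the same libraries, so their share is not set against the 30 of all 371 quantified pairs.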

How the data were processed

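The authors deposited tables of assembled models (by Cufflinks, per the source column of the files) and of Ensembl release 65 genes on mm9, each with RPKM1, RPKM2 and an iIDR. The RPKM values are by the authors and no label ties them to a library. Junction read counts were deposited with 2 values that sum to the total. Contigs were deposited with a coverage signal for both libraries together, in a table with no header. The deposited mm10 gene tables (GENCODE M4) hold expected counts and TPM per library. No source used here names the aligner or the quantifier. Per-library depth of the mm9 tables is unknown, so no interval is given for an RPKM.

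The Ensembl table lists genes more than once, on 74620 lines for 37310 genes, and each was taken once. Overlaps are of whole spans and of at least 1 base. Levels are means of the 2 RPKM values, and ratios use a pseudocount of 0.1 RPKM. Symbols and types come from GENCODE M21 by Ensembl identifier (2154 of 2298 sense genes matched), and the mm9 and mm10 tables were joined by identifier only. With 1 group there was no test. The steps were tested on simulated models. Promoters come from RefSeq (GRCm38.p6). The steps ran in Python 3.11.15 with numpy 2.4.6, pandas 2.3.3, scipy 1.17.1 and matplotlib 3.10.9.

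Named models are the 8 of highest mean RPKM in each position class, the 8 of highest ratio among pairs of at least 1 RPKM, the 5 with most exon entries and those opposite a listed gene. The models and lists were chosen with earlier results of these data known. Alternatives were other iIDR, overlap and level limits, exon overlap, another choice of sense gene, other pseudocounts and distances, single RPKM values, and the sense level from assembled models.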

Additional observations from a re-analysis of the deposited data

How the results depend on the processing

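The count of 4198 antisense models was 273 with an iIDR under 0.01, 1216 where a model exon had to overlap an opposite-strand exon and 77 where the mean had to reach 1 RPKM. Under these 3 settings, in that order, inside models made up 72.5%, 46.4% and 87.0%, and the median log2 ratio, -1.08 over all models, turned positive at 0.96, 0.019 and 2.73. The cause of the turn was not tested. Models above their sense gene then numbered 158, 628 and 56, models of more than 1 exon entry 128, 487 and 34, and models within 5000 bases of an upstream gene 16, 259 and 4. Exonic overlap was present in 88 models at an iIDR under 0.01 and in 8 at 1 RPKM, where the median head-to-head start lay at 1645 bases.

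With an overlap of at least 200 bases, 85.2% of models were inside. The median log2 ratio was -2.24 with a pseudocount of 0.01 RPKM, -0.20 with 1 RPKM, -1.11 with the highest opposite-strand gene as the partner, and -1.05 with the sense level from the assembled model, available for 3088 models, of which 582 were above it. Each single RPKM value gave -1.11 to -1.08 and 1322 to 1369 models above their sense gene. Upstream genes were found for 133 models within 1000 bases and 1616 within 20000 bases. The median of the sense genes was 1.88 as posterior mean TPM, against 1.64, and 1.59 to 1.69 in single libraries. An opposite-strand M21 gene was found for 32.7% of sense genes by exons and 27.7% by long noncoding types alone, against 52.9%.

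Chosen after seeing the data, introns of at least 50 bases were found in 470 models and with junction reads in 419, and without sense genes whose mm9 span exceeded the M21 span 2-fold the median log2 ratio was -1.05. No paired analysis was possible because there is 1 group. The median level was 0.0213 RPKM, the reads behind it are unknown, and 399 models had a 0 in one value.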
